A study of Mus musculus with 9 samples.

Results

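Bile acid synthesis and uptake in mouse liver was followed through 9 listed genes of 19938 genes measured on Affymetrix gene arrays: Cyp7a1, Cyp8b1, Cyp27a1, Cyp7b1, Hsd3b7, Akr1d1, Baat, Slc10a1 and Amacr. They were listed by name, as enzymes of bile acid synthesis and conjugation and the main uptake carrier, with earlier results of these data known. Each of the 9 had a single named probe set, so all 9 were measured. Livers came from 9 mice, 3 per group, with 1 array per mouse. Wild-type mice were C57BL/6J. Clock mutant mice carried Clock-D19, a dominant-negative allele of the circadian activator gene Clock: its protein binds BMAL1 and is weak as an activator. The rescue group was also Clock-D19, and at week 10 these animals were given 35 µg of plasmid, the liver expression vector pLIVE with wild-type Clock, as a hydrodynamic injection into the tail vein. All 3 groups ate a diet with 45% fat for 5 weeks from 10 weeks of age under equal hours of light and dark, and were killed at zeitgeber time 10, that is 10 h after lights on. The labels describe no control injection for the other groups and do not give the sex of the animals or the strain background of the mutants. Rescue mice differ from mutant mice in the plasmid and in the injection itself, which cannot be told apart here. The p-values measure the spread between these animals at 1 hour of the day.

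Hepatocytes convert cholesterol to bile acids, which carry cholesterol out of the body and emulsify dietary fat. The classic route starts with CYP7A1, the rate-limiting enzyme, and CYP8B1 then decides how much becomes cholic acid. The alternative route starts with CYP27A1, which oxidises the side chain, and continues with CYP7B1. HSD3B7 and AKR1D1 modify the sterol ring in both routes, AMACR prepares the side chain for shortening in peroxisomes, and BAAT joins the product to taurine or glycine. SLC10A1, also called NTCP, returns bile acids from portal blood to the hepatocyte. Bile acids repress Cyp7a1 through the receptor FXR (Nr1h4) and its target SHP (Nr0b2) in liver, and through intestinal FGF15 acting on FGFR4 and beta-Klotho (Klb). Cyp7a1 is also known as a rhythmic gene, with DBP as an activator and E4BP4 (Nfil3) and the DEC proteins as repressors of its promoter.

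The libraries were read as liver: the mean log2 level of 14 measured hepatocyte markers lay between 11.80 and 12.14 on every array, against a median of 6.12 to 6.27 over all genes. Clock itself ranged from 9.24 to 9.97 in wild type, from 9.89 to 10.88 in Clock mutant and from 9.41 to 10.33 in rescue livers on the log2 scale. It was 0.94 ± 0.26 higher in mutant than in wild type, with overlapping values (limma adjusted p = 0.0266, lost under 5 of 18 alternatives, with 0.0715 to 0.108 when mutant animals 1 or 3, or wild-type animals 2 or 3, were left out singly, and 0.139 with a trended and robust prior). Rescue against mutant it differed by -0.66 ± 0.26 (interval -1.21 to -0.10, adjusted p = 0.168), so no rise of Clock with the plasmid was measured, and rescue is used here as the label of these livers. Which transcripts the probe set reads was not tested. Markers of other cell types differed between groups, where 9.02% of all genes were called lower and 6.37% higher in Clock mutant against wild type. Of 14 Kupffer cell markers, 10 fell in Clock mutant against wild type, and their summed linear level was 4362 to 5802 in wild type, 1896 to 2061 in mutant and 2538 to 3144 in rescue livers. Of 16 endothelial markers, 9 fell, with sums of 3781 to 4219, 2574 to 2720 and 2939 to 3646 in the same order. Of 13 stellate cell and fibroblast markers, 4 fell, with sums of 3604 to 3938, 2824 to 2980 and 3418 to 3705. A linear sum is weighted to the brightest markers, such as Vsig4 for Kupffer cells and Dcn for stellate cells. The mean log2 level of the stellate list was 7.18 to 7.32, 7.05 to 7.13 and 7.23 to 7.26 in the same order. That of the Kupffer cell list was 7.36 to 7.81, 6.75 to 6.85 and 6.93 to 7.15. The hepatocyte sum was 62650 to 71023 in wild type, 72423 to 77168 in mutant and 65524 to 75336 in rescue livers, and 2 of its 14 markers rose in the mutant. RMA returns no zeros, so no marker is listed at 0. In whole liver, fewer cells of a type and less RNA per cell cannot be told apart.

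The bile acid genes did not move as a block. In Clock mutant against wild-type liver, 2 of the 9 rose, Hsd3b7 and Cyp8b1, none fell and 7 did not pass a limma adjusted p of 0.05. Over all genes 15.4% were called in this comparison, 6.37% as higher and 9.02% as lower, so 2 of 9 stands near the background. At an unadjusted p under 0.05, 3 of the 9 were higher and 1 was lower. No share of all genes is given at an unadjusted p, here or below, so such counts have no background beside them. The values of the groups did not overlap for 5 of the 9, against 35.7% of all genes. With each array centred on its median, the calls over all genes were 736 higher and 2078 lower, in place of 1270 and 1798. With the trend on gene span removed they were 811 and 1823. In rescue against Clock mutant, Cyp7a1 fell and the other 8 did not pass, where 3.81% of all genes were called, 2.61% as higher and 1.2% as lower (520 and 239 genes, or 541 and 438 with quantile normalization repeated). Groups did not overlap for 4 of the 9, against 25.7% of all genes. In rescue against wild type, Cyp7a1 fell, Hsd3b7 rose and 7 did not pass, against 2.28% of all genes, 0.928% as higher and 1.35% as lower (185 and 269 genes, or 154 and 374 with median centring). Groups did not overlap for 3 of the 9, against 19.5% of all genes. The median difference of the 9 genes was -0.15, -0.08 and -0.13 on the log2 scale in the 3 comparisons, and that of all genes 0.07, -0.05 and 0.01. The comparisons share arrays, since each group enters 2 of them.

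**Figure D1:**
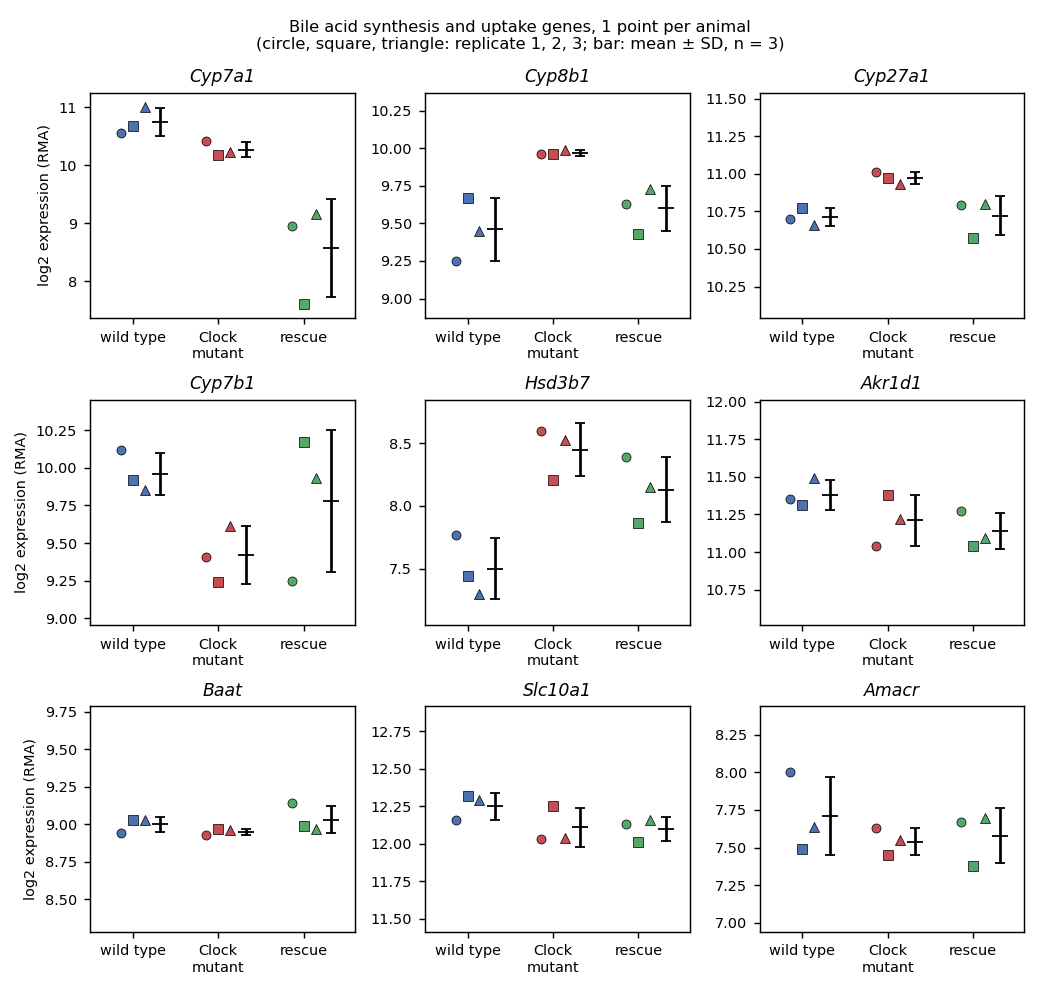
Log2 expression (RMA) of each listed gene on every array, by group, with 1 point per animal and the mean ± SD (n = 3) beside it; the panels have different vertical scales. Cyp7a1 lies between 7.61 and 9.15 in rescue livers, under every other liver, and Hsd3b7 lies between 7.30 and 7.77 in wild type, under every mutant and rescue liver.

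Cyp7a1, the rate-limiting enzyme gene of the classic route, was lowest in the rescue livers. Its log2 level was 10.55, 10.67 and 11.00 in wild type, 10.42, 10.18 and 10.22 in Clock mutant and 8.95, 7.61 and 9.15 in rescue livers. All 3 rescue animals lay below all 6 others, and the mutants lay below wild type without overlap. Rescue against mutant it fell by 1.71 ± 0.28 (SE), or 3.26-fold (limma adjusted p = 0.00824, n = 3 per group). Rescue against wild type it fell by 2.17 ± 0.28, or 4.5-fold (adjusted p = 0.000918). The mutant and wild-type levels differed by -0.47 ± 0.28, with a 95% confidence interval of -1.07 to 0.14, which did not pass (adjusted p = 0.282).

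Among all 19938 genes the Cyp7a1 difference was the lowest in both rescue comparisons. It was the lowest under 13 of 18 alternative settings against mutant, and ranked 4 from the lowest at most. Against wild type it was the lowest under 16 of 18, and ranked 3 from the lowest at most. Both counts include settings in which the rank was fixed. The replicate block, median centring, the trended prior, the 6 arrays alone and leaving out a third-group array keep the order of differences. Removing dim genes cannot displace the lowest gene. Against mutant it was not lowest with array weights, the span trend removed, or without Clock mutant replicate 1, rescue replicate 1 or 2. Against wild type it was not lowest without wild-type replicate 3 or rescue replicate 2. The rescue animals were uneven: their SD of 0.84 was above that of 99.9% of genes in the same arrays. Rescue replicate 2 read lowest, and without it the difference was -1.22 against mutant (adjusted p = 0.00193) and -1.69 against wild type (adjusted p = 0.000115). Without that array the mutant also passed against wild type (-0.47, adjusted p = 0.028), as it did when those 6 arrays were fitted alone (adjusted p = 0.0357). With a trended and robust prior the call of rescue against mutant was lost (adjusted p = 0.0662).

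**Figure D2:**
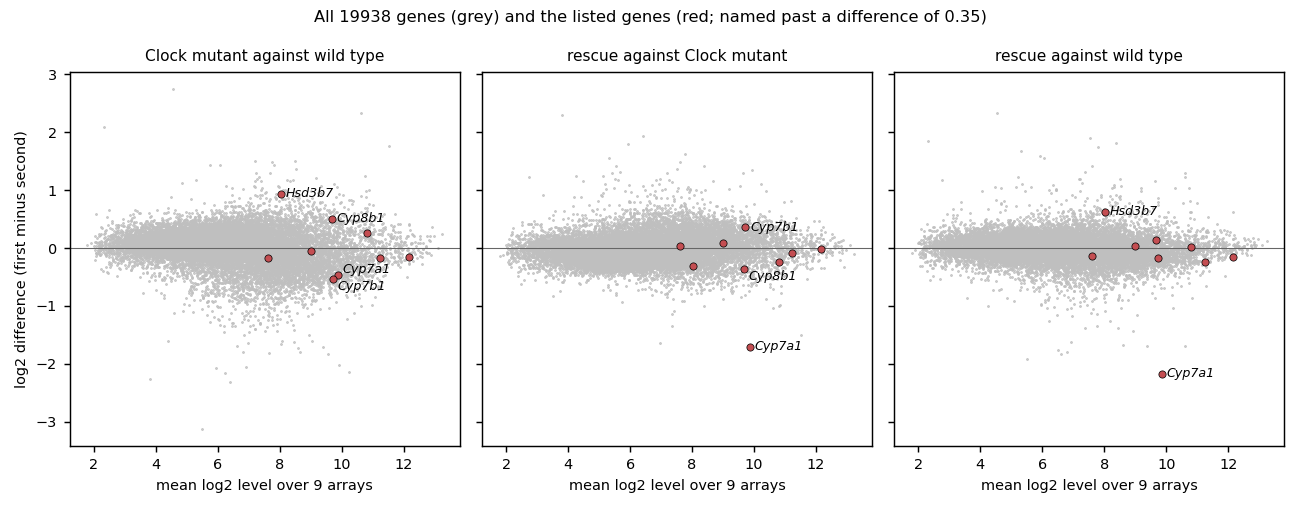
Log2 difference of every gene (grey) against its mean log2 level over 9 arrays, for the 3 comparisons, with the listed genes in red. Cyp7a1 lies under all other genes in the panels of rescue against Clock mutant (-1.71) and rescue against wild type (-2.17), and inside the cloud in Clock mutant against wild type (-0.47).

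Cyp8b1, whose enzyme sets the share of cholic acid, took another course. It read 9.25, 9.67 and 9.45 in wild type, 9.96, 9.96 and 9.99 in mutant, and 9.63, 9.43 and 9.73 in rescue livers. The mutants were above both other groups without overlap, while rescue and wild-type values interleaved. Cyp8b1 rose by 0.51 ± 0.12 in mutant against wild type, or 1.43-fold (limma adjusted p = 0.0105, n = 3 per group). Without wild-type replicate 1 this was 0.41 and did not pass (adjusted p = 0.0517). Rescue against mutant the difference was -0.37 ± 0.12 (adjusted p = 0.0967), with a call when the prior was trended and robust (adjusted p = 0.0463). Rescue against wild type it was 0.14, with a confidence interval of -0.12 to 0.40.

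Hsd3b7 encodes the enzyme that oxidises the sterol ring after the first hydroxylation, in both routes. Its log2 level was 7.77, 7.44 and 7.30 in wild type, 8.60, 8.21 and 8.53 in mutant and 8.39, 7.86 and 8.15 in rescue livers. Every mutant and rescue animal lay above every wild-type animal, and mutant and rescue overlapped. It rose by 0.94 ± 0.16 in mutant against wild type, or 1.92-fold (limma adjusted p = 0.00122), and this call held under all 18 alternatives. Rescue against wild type it rose by 0.63 ± 0.16, or 1.55-fold (adjusted p = 0.048). That call is marginal: it was lost under 10 of the 18 alternatives, with adjusted p up to 0.19 without wild-type replicate 3, and also with median centring (adjusted p = 0.0724). Rescue against mutant the difference was -0.31, with an interval of -0.64 to 0.02.

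Akr1d1, the next enzyme on the ring, read 11.35, 11.31 and 11.49 in wild type, 11.04, 11.38 and 11.22 in mutant and 11.27, 11.04 and 11.09 in rescue livers. Wild type overlapped the mutants but lay above all rescue animals. The differences were -0.17 (interval -0.42 to 0.07) in mutant against wild type and -0.25 (interval -0.49 to 0.00, adjusted p = 0.34) in rescue against wild type. Neither passed, and rescue and mutant differed by -0.08 (interval -0.32 to 0.17).

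The promoter sequences of Cyp8b1 and Hsd3b7 are shown because these listed genes were called in a comparison and had a sequence given. Cyp7a1 was also called, but no promoter sequence was given for it. RefSeq sequences of the 250 bases before the start site (GRCm38.p6) were given for 5 of the 9 genes. They are written along each gene's own strand, 5′ to 3′, with matches to the searched motifs in capitals. Cyp8b1 is on the minus strand at chr9:121916306-121916555 and Hsd3b7 on the plus strand at chr7:127800359-127800608.
Cyp8b1: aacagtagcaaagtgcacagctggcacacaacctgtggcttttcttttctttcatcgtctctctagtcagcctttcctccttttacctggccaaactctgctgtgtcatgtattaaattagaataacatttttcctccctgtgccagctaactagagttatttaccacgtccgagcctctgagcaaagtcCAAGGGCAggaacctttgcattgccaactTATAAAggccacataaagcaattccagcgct
Hsd3b7: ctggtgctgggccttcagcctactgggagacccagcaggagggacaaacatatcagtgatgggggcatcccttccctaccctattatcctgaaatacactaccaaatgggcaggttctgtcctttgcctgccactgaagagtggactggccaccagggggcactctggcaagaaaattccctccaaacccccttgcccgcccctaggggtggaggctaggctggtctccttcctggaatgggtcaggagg

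The motifs were searched on both strands. They were the E-box CACGTG and its variant CACGTT, bound by CLOCK and BMAL1, the D-box TTANGTAA of DBP and E4BP4, TAGGTCA as the core of the REV-ERB and ROR element, and CAAGGNCA, the element of LRH-1 (Nr5a2), where N is any base. TATAAA, the TATA box, was added after the sequences were seen. Cyp8b1 held CAAGGGCA, 60 to 53 bases before the start site, and TATAAA, 31 to 26 bases before it. Hsd3b7 held no match in this window. Of all 32851 promoter windows of this length, 5.53% held CAAGGNCA, 12.4% TATAAA, 6.02% CACGTG, 3.85% CACGTT, 2.06% TTANGTAA and 2.23% TAGGTCA. A match describes the letters and not a bound site.

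Cyp27a1 opens the alternative route and also oxidises the side chain in the classic one. Its log2 level was 10.70, 10.77 and 10.66 in wild type, 11.01, 10.97 and 10.93 in mutant and 10.79, 10.57 and 10.80 in rescue livers. All mutants were above all other animals, and rescue and wild type overlapped. The difference was 0.26 ± 0.10 in mutant against wild type (limma adjusted p = 0.101, called under 1 of 18 alternatives) and -0.25 ± 0.10 in rescue against mutant (adjusted p = 0.178). It was 0.01 in rescue against wild type, with an interval of -0.21 to 0.23.

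Cyp7b1, which hydroxylates the oxysterols of the alternative route, was lower in the mutants. It read 10.12, 9.92 and 9.85 in wild type, 9.41, 9.24 and 9.61 in mutant and 9.25, 10.17 and 9.93 in rescue livers. Mutant and wild type did not overlap. Rescue replicate 1 lay among the mutants, and the other rescue animals lay above the lowest wild-type animal. The mutant difference of -0.54 ± 0.18 did not pass over all genes (limma adjusted p = 0.0622) but passed under 5 of 18 alternatives, among them without the dimmest 40% of genes (adjusted p = 0.0421). Rescue against mutant it was 0.36 ± 0.18 (adjusted p = 0.282), and without rescue replicate 1 it was 0.63 and passed (adjusted p = 0.0341). Rescue against wild type it was -0.18, with an interval of -0.57 to 0.21.

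For side-chain shortening, conjugation and uptake no difference passed in any comparison. Amacr, the racemase gene, read 8.0, 7.49 and 7.64 in wild type, 7.63, 7.45 and 7.55 in mutant and 7.67, 7.38 and 7.70 in rescue livers. Baat, the conjugating enzyme gene, read 8.94, 9.03 and 9.03, then 8.93, 8.97 and 8.96, then 9.14, 8.99 and 8.97 in the same order. Slc10a1, the uptake carrier gene, read 12.16, 12.32 and 12.29, then 12.03, 12.25 and 12.04, then 12.13, 12.01 and 12.16. Groups overlapped in every comparison of these 3 genes except Baat in rescue against mutant. The intervals bound what may have been missed. For Baat they ran from -0.26 to 0.29 over the 3 comparisons, for Slc10a1 from -0.38 to 0.22 and for Amacr from -0.46 to 0.33.

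**Figure D3:**
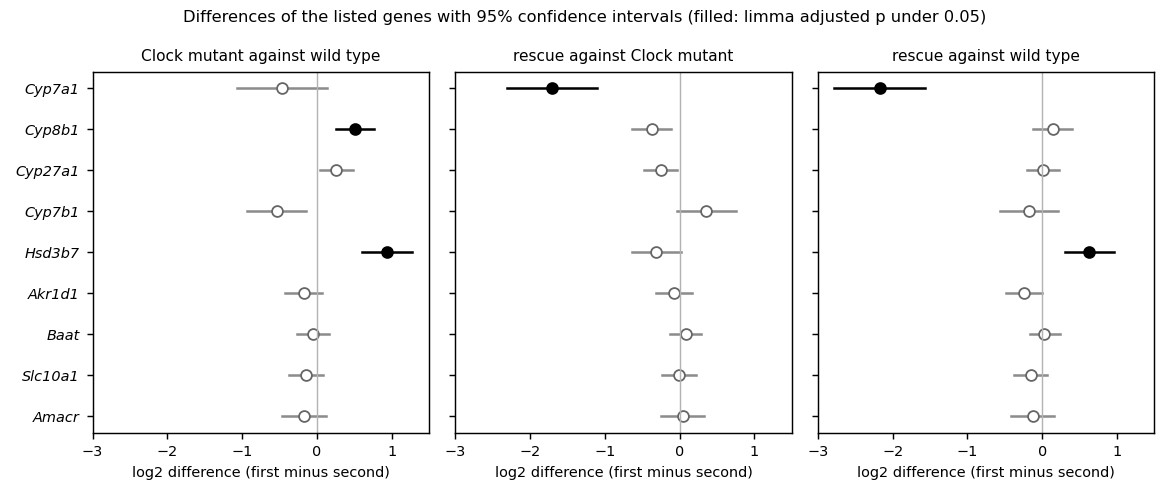
Log2 difference of each listed gene in the 3 comparisons (first group minus second) with its 95% confidence interval; filled points have a limma adjusted p under 0.05. Filled points are Cyp8b1 (0.51) and Hsd3b7 (0.94) in Clock mutant against wild type, Cyp7a1 (-1.71) in rescue against mutant, and Cyp7a1 (-2.17) and Hsd3b7 (0.63) in rescue against wild type.

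One rescue animal stood low across the list. Rescue replicate 2 had the lowest value of its group in 7 of the 9 genes, where 33.1% of all genes were lowest on that array. The exceptions were Baat, where it was in the middle, and Cyp7b1, where it was highest. Its mean hepatocyte marker level was 11.80, against 12.09 on both other rescue arrays. The part of this in the rescue differences was not tested beyond leaving the array out.

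Mutant values of Hsd3b7 and Cyp8b1 were higher in the same arrays in which most Kupffer cell and endothelial markers were lower than in wild type. Those lower were 13 of 14 Kupffer cell and 15 of 16 endothelial markers. The stellate cell and fibroblast list was mixed, with 8 of 13 markers lower and 5 higher. The part of cell makeup in these differences was not tested. In mutant against wild type limma called 15.4% of all genes. Of the remaining marker lists, it called 1 of 9 bile duct and 1 of 9 lymphocyte markers. It called 0 of 8 neutrophil and 0 of 2 measured red cell markers. At an unadjusted p under 0.05 the last 2 counts were 0 and 1. Rescue against mutant, 1 of 14 Kupffer cell, 2 of 16 endothelial, 3 of 13 stellate cell and 1 of 9 bile duct markers rose. In the same comparison 1 of 14 hepatocyte markers fell, where 2.61% of all genes were called higher and 1.2% lower. In rescue against wild type, 6 of 14 Kupffer cell and 2 of 16 endothelial markers fell, against 1.35% of all genes called lower.

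The other genes of the pathway were taken from lists of synthesis, export, uptake and sensing genes, 57 in all and 51 measured. In mutant against wild type 5 rose, 4 fell and 42 did not pass, and their median difference was 0.07, the same as that of all genes. In rescue against mutant 2 rose and 1 fell, and in rescue against wild type 1 rose and 1 fell. These shares stand near the background percentages given above.

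Among 19 other synthesis, side-chain and conjugation genes, 3 rose and 2 fell in the mutant, against 15.4% of all genes called. Cyp39a1, which hydroxylates oxysterols made by CYP46A1, read 7.80, 8.70 and 8.64 in wild type, 7.6, 7.54 and 7.39 in mutant and 8.63, 8.41 and 8.48 in rescue livers. The mutants were below both other groups without overlap. It fell by 0.87 ± 0.18 in mutant against wild type (limma adjusted p = 0.00584) and was 1.0 ± 0.18 higher in rescue than in mutant (adjusted p = 0.0125), and both calls held under all 18 alternatives. Akr1c14, a hydroxysteroid dehydrogenase gene, fell by 0.72 ± 0.12 in the mutant (adjusted p = 0.00147), and Acox2, the peroxisomal oxidase of the bile acid side chain, rose by 0.53 ± 0.10 (adjusted p = 0.00225).

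Less stable calls in this list were the peroxisomal thiolase gene Acaa1b, which rose by 0.72 ± 0.18 in the mutant (limma adjusted p = 0.0154, lost under 2 of 18 alternatives, with 0.50 and adjusted p = 0.0757 without wild-type replicate 3), and Cyp46a1 (0.36, adjusted p = 0.0419, lost under 8). Fdx1, the ferredoxin that passes electrons to CYP27A1, read 9.74, 9.67 and 9.69 in wild type, 9.67, 9.45 and 9.60 in mutant and 9.26, 9.15 and 9.24 in rescue livers. Its rescue values were below all others, and it fell by 0.48 ± 0.10 against wild type (adjusted p = 0.019). That call was lost under 4 alternatives, with adjusted p up to 0.0801 without wild-type replicate 1.

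Among 12 export genes, 2 rose and 1 fell in the mutant, where 15.4% of all genes were called. Abcb11, the bile salt export pump of the canalicular membrane, read 11.42, 11.37 and 11.37 in wild type, 11.77, 11.78 and 11.69 in mutant and 11.90, 11.74 and 11.74 in rescue livers. All mutant and rescue animals exceeded all wild-type animals. It rose by 0.36 ± 0.10 in mutant against wild type (limma adjusted p = 0.0225) and by 0.41 ± 0.10 in rescue against wild type (adjusted p = 0.0412), but these small differences were lost under 6 and 10 of 18 alternatives, with adjusted p up to 0.0694 and 0.138. Abcg2, an efflux transporter gene of the same membrane, read 9.75, 9.35 and 9.52 in wild type, 8.86, 8.49 and 8.95 in mutant and 9.50, 9.50 and 9.29 in rescue livers. It fell by 0.77 ± 0.14 in the mutant (adjusted p = 0.00185) and was 0.66 ± 0.14 higher in rescue than in mutant (adjusted p = 0.0198, or 0.0632 without Clock mutant replicate 2 and 0.0708 without rescue replicate 2). Slc51a, a subunit of the basolateral exporter, rose by 0.35 ± 0.10 from a dim level (adjusted p = 0.025, lost under 7 alternatives).

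Other organic anion uptake genes, 6 measured, showed 1 call in each comparison with the mutant, and none in rescue against wild type. Over all genes 15.4% were called in mutant against wild type, 3.81% in rescue against mutant and 2.28% in rescue against wild type. Slco1a1, an organic anion carrier, fell by 0.42 ± 0.13 in mutant against wild type (limma adjusted p = 0.0451, lost under 9 of 18 alternatives). Slco2b1 fell by 0.45 ± 0.12 in rescue against mutant (adjusted p = 0.0489, lost under 10). Slc10a2, the apical bile acid carrier of bile duct cells, was listed among the bile duct markers. It read 7.49, 7.52 and 7.68 in wild type, 6.99, 6.75 and 6.75 in mutant and 7.77, 7.39 and 7.38 in rescue livers, with the mutants below both other groups. It fell by 0.73 ± 0.13 in the mutant (adjusted p = 0.00154) and was 0.69 ± 0.13 higher in rescue than in mutant (adjusted p = 0.012), under all 18 alternatives. It was the single bile duct marker called in each of these comparisons.

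Bile acid sensing and feedback genes gave no call: 0 of 14 measured passed limma's adjusted p in each of the 3 comparisons, against 15.4%, 3.81% and 2.28% of all genes. At an unadjusted p under 0.05, with no share of all genes beside it, 3 were higher in mutant than in wild type. By the same measure 1 was higher and 1 lower in rescue than in mutant, and 1 was lower in rescue than in wild type. Nr0b2, which encodes the repressor SHP, read 7.13, 7.18 and 6.79 in wild type, 6.86, 7.56 and 7.54 in mutant and 7.51, 7.15 and 7.45 in rescue livers. All groups overlapped, and rescue against wild type the interval was -0.04 to 0.71. Nr1h4, the FXR gene, ranged from 9.90 to 10.33 over all arrays. Fgfr4 differed by 0.39 ± 0.14 in mutant against wild type (adjusted p = 0.079) and passed with those 6 arrays alone (adjusted p = 0.0453) and without rescue replicate 2 (adjusted p = 0.0356). Nr0b2 passed in the same comparison without Clock mutant replicate 1 (0.52, adjusted p = 0.0394, against 0.29 and 0.287 with all arrays). Klb differed by 0.33 ± 0.12 in rescue against mutant (adjusted p = 0.125). Expression of Fgf15 in intestine was not measured here.

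**Figure D4:**
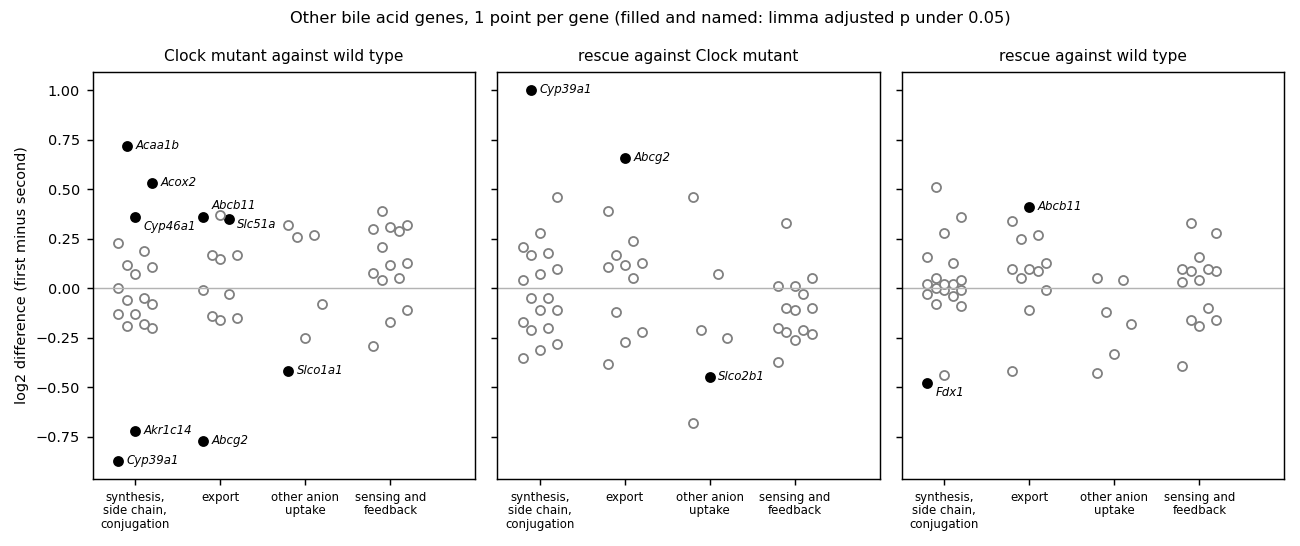
Log2 differences of the other bile acid genes in 4 lists (1 point per gene) for the 3 comparisons; filled and named points have a limma adjusted p under 0.05. Filled points number 9, 3 and 2 of 51, and none is in the list of sensing and feedback genes.

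Of 14 transcription factors of the hepatocyte programme, 2 fell in the mutant, against 9.02% of all genes, and 0 were called by limma in the rescue comparisons. At an unadjusted p under 0.05, with no share of all genes beside it, 1 was higher and 5 were lower in mutant than in wild type. By the same measure 2 were higher in rescue than in mutant and 3 were lower in rescue than in wild type. Onecut1, a hepatocyte factor also called HNF6, read 9.16, 9.28 and 9.96 in wild type, 7.45, 7.81 and 7.77 in mutant and 7.57, 9.54 and 9.37 in rescue livers. It fell by 1.79 ± 0.37 in the mutant, or 3.46-fold (limma adjusted p = 0.00521, or 0.0777 with a trended and robust prior). Rescue replicate 1 lay among the mutants, as for Cyp7b1, and the other rescue animals lay within the wild-type range. Ppargc1a, a coactivator gene, fell by 0.38 ± 0.11 (adjusted p = 0.0272, lost under 4 of 18 alternatives).

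Of 17 measured circadian regulators, 2 rose and 11 fell in the mutant, 2 rose and 1 fell in rescue against mutant, and 1 rose and 10 fell in rescue against wild type, where 15.4%, 3.81% and 2.28% of all genes were called. Dbp read 7.70, 7.77 and 7.66 in wild type, 6.64, 6.74 and 6.49 in mutant and 6.59, 6.54 and 7.10 in rescue livers. Nfil3, which encodes E4BP4, read 7.59, 7.76 and 7.69, then 9.29, 9.03 and 9.23, then 8.76, 8.52 and 8.42. In rescue livers Dbp overlapped the mutants and Nfil3 lay between the other groups without overlap. The differences of rescue against wild type were -0.97 ± 0.14 for Dbp (limma adjusted p = 0.00169) and 0.89 ± 0.12 for Nfil3 (adjusted p = 0.00103). Rescue against mutant, Nfil3 fell by 0.62 ± 0.12 (adjusted p = 0.0138, up to 0.063 with single arrays left out). Bhlhe41, which encodes the repressor DEC2, read 7.39, 7.23 and 6.92 in wild type, 4.36, 3.79 and 4.05 in mutant and 4.97, 5.04 and 5.77 in rescue livers, with no overlap between any groups. The mutant values lay near the medians of 1015 olfactory receptor genes, a dim reference, on those arrays (4.25 to 4.33). The rescue values lay under the 95th percentiles of that reference (5.74 to 6.04), so the size of these differences is uncertain. Bhlhe41 fell by 3.12 ± 0.20 in the mutant (adjusted p = 8.19e-07) and was 1.20 ± 0.20 higher in rescue than in mutant (adjusted p = 0.00824). Both calls held under the 17 alternatives in which the gene was tested. It was itself among the dim genes left out in the alternative without the dimmest genes. Bhlhe40, the other DEC gene, read 8.67, 8.48 and 8.56 in wild type, 7.64, 7.63 and 7.81 in mutant and 8.04, 6.96 and 8.12 in rescue livers. The mutants lay below wild type without overlap, and rescue overlapped the mutants. Bhlhe40 was called lower in the mutant with each array left out (-0.94 to -0.83). A trended and robust prior lost that call (-0.88, limma adjusted p = 0.0565). Nr1d1, which encodes REV-ERB alpha, read 9.97, 10.30 and 8.96 in wild type, 8.88, 9.0 and 8.95 in mutant and 10.15, 9.92 and 10.64 in rescue livers. It was 1.29 ± 0.26 higher in rescue than in mutant (adjusted p = 0.0167), a call lost without Clock mutant replicate 1 (adjusted p = 0.0604), without rescue replicate 3 (adjusted p = 0.0723) and with a trended and robust prior (adjusted p = 0.0937).

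For the listed genes with an F test adjusted p under 0.05, the most similar genes were named by Pearson correlation over the 9 arrays, as a description. The correlation holds the group differences, which the arrays share. For Cyp7a1 they were Acot13 (0.966), Auh (0.957) and Obp1a (0.953), but Obp1a averaged 3.16 to 3.44 in the groups, below the array medians of 1015 olfactory receptor genes (4.15 to 4.33). Acot13 spanned a much smaller range than Cyp7a1, with group means of 10.49 in wild type, 10.31 in mutant and 10.00 in rescue. For Cyp8b1 they were Zfp704 (0.967), Npnt (0.962) and Tspo (0.961), and for Hsd3b7 they were Nsfl1c (0.987), Dhrs11 (0.985) and Pabpn1 (0.985).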

How the data were processed

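The authors deposited 1 log2 value per probe set and liver, from RMA in Affymetrix Expression Console per the submitters' processing notes. RMA gives the probe intensities of all arrays 1 distribution before they are summarised, and shrinks fold changes at low signal. The summarised values need not share it, and array medians over the genes kept ran from 6.12 to 6.27. Base 2 is inferred from the maximum of 13.86. Of 35556 probe sets, 21789 had a single gene symbol in the platform annotation; the brightest per gene was kept, which left 19938 genes. The 3 groups entered a single limma 3.58.1 fit (R 4.3.3) of all 9 arrays, with 6 residual and 8.475 prior degrees of freedom, and Benjamini-Hochberg adjustment over all genes in each comparison; adjusted p under 0.05 was called. The fit was tested on simulated data. Precision is limited by 3 arrays per group.

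The listed genes, the lists and the rule for named genes were chosen with earlier results of these data known. The rule names the 9 listed genes, up to 4 called members of each other list and comparison by smallest p (any called circadian regulator), list members that did not pass, and 3 similar genes per listed gene past the F test. Cyp46a1 and Slc10a2 fall outside it and were named after their values were seen. A planned comparison of protein sequences was not made. Replicate numbers were checked as pairs: deviations from group means of same-numbered arrays correlated at -0.111 to 0.191 across genes. By these deviations, 6 of 9 arrays matched best an array of their own number in another group. How many would match under unrelated numbering was not computed, so this count has no reference beside it. The labels do not say that the numbers mark a shared batch, so the replicate block was kept as an alternative. Figures used matplotlib 3.10.9 in Python 3.11.15.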

Additional observations from a re-analysis of the deposited data

How the results depend on the processing

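Each result was recomputed with median centring, quantile normalization repeated, array weights, a trended and robust prior, the replicate block, the dimmest 40% of genes removed, the 6 arrays of the compared groups, the gene span trend removed, all probe sets without collapse, and leaving out each array; no listed gene had another named probe set to try. Below, the comparisons are abbreviated as mutant (against wild type), rescue-mutant and rescue-wild. The count of listed genes called in mutant, 2, was 4 with the 6 arrays alone and 1 to 4 with single arrays left out. In rescue-mutant it was 1, and 1 to 2 with single arrays left out. In rescue-wild it was 2, and 1 with median centring, the 6 arrays alone, the span trend removed or all probe sets, and 1 to 2 with single arrays left out. Other bile acid genes called in rescue-mutant, 3, were 5 with the replicate block or quantile normalization repeated, 7 without dim genes, with the trended prior or with array weights, and 1 to 4 with single arrays left out. In rescue-wild, 2 became 4 without dim genes or with the trended prior, 1 with median centring or the 6 arrays alone, and 0 to 2 with single arrays left out; in mutant, 9 became 4 to 11. Counts over all genes with single arrays left out were 1695 to 3130 in mutant (lowest without wild-type replicate 3), 200 to 692 in rescue-mutant (lowest without Clock mutant replicate 1) and 233 to 501 in rescue-wild (lowest without wild-type replicate 3). Without dim genes they were 1178 in rescue-mutant and 711 in rescue-wild, with the trended prior 1210 and 704, and with array weights 1334 in rescue-mutant. Why these counts moved was not tested, apart from fewer genes tested without dim genes and fewer arrays with arrays left out. The replicate block changed no call of a listed gene (Cyp7a1 rescue-mutant -1.71, adjusted p = 0.00542), and 6 of 9 arrays correlated best with an array of their own number in another group.

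No called difference changed direction. Uncalled differences near 0 turned sign as follows. Baat became 0.02 in mutant with quantile normalization repeated, and in rescue-wild 0.00 with median centring and -0.02 to 0.06 with single arrays left out, negative without rescue replicate 1. Slc10a1 in rescue-mutant became 0.01 with median centring, 0.05 with array weights or the span trend removed, and -0.05 to 0.07 with single arrays left out. Cyp27a1 in rescue-wild became -0.03 with median centring and -0.03 to 0.08 with single arrays left out. With single arrays left out, Amacr ranged from -0.24 to 0.01 in rescue-wild and from -0.02 to 0.14 in rescue-mutant, Akr1d1 from -0.16 to 0.00 in rescue-mutant and Cyp7b1 from -0.37 to 0.09 in rescue-wild. Among sensing genes in rescue-mutant, Fgfr4 became 0.03 with array weights and ranged from -0.23 to 0.06 with single arrays left out, Nr0b2 ranged from -0.18 to 0.17, and Nr1h4 became -0.03 with the span trend removed and ranged from -0.10 to 0.11. In rescue-wild Nr1h4 ranged from -0.21 to 0.01.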
